A study of Mus musculus with 6 samples.

Results

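The H3K9 demethylases are the enzymes that remove methyl groups from lysine 9 of histone H3, the mark that EHMT1 (GLP) and EHMT2 (G9a) put on as mono- and dimethylation. The 10 genes described here were taken by symbol, not by any measured value: Kdm3a, Kdm3b, Jmjd1c, Kdm4a, Kdm4b, Kdm4c, Kdm4d, Kdm1a, Phf8 and Phf2. All 10 were found among the 21006 symbols of the deposited counts, and all 10 were among the 14555 genes that passed the filter on low counts. RNA came from neural crest cells of mouse branchial arches at E11.5, in 3 DKO (double knockout) and 3 control libraries. DKO embryos were Ehmt1f/f and Ehmt2f/f, so both genes were floxed, and control embryos were Ehmt1+/+ and Ehmt2+/+. Both groups carried Wnt1-cre, which is active in the premigratory neural crest, and the Rosa26 TdTomato/+ reporter on which the cells were sorted, so the controls share the recombinase and the red protein. The titles call the replicates biological, and whether a library is 1 embryo or a pool is not stated there. The comparison asks whether erasers of the mark differ in level when its writers are floxed.

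Removal of H3K9 methylation is shared by unrelated and related enzymes. The JmjC enzymes are oxygenases that need iron, oxygen and 2-oxoglutarate. Among them the KDM3 group acts on mono- and dimethyl H3K9, the product of EHMT1 and EHMT2, the KDM4 group acts mainly on the trimethyl and dimethyl forms, and PHF8 and PHF2 carry a PHD finger that binds methylated H3K4 beside the catalytic domain. KDM1A (LSD1) is a flavin-dependent amine oxidase best known for H3K4 and linked to H3K9 with some partners. Variants of PHF8 cause an X-linked intellectual disability with cleft lip or palate in people, which ties this enzyme to the face that arch crest builds.

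Total counts ran from 23414466 to 44538260 per library. Both targeted genes were lower in each DKO library than in each control library. Ehmt2 measured 119 to 140.4 CPM (counts scaled to a common library total by TMM) in DKO and 347 to 359.7 CPM in control libraries, and Ehmt1 133 to 168 and 250.03 to 267.9 CPM. These counts can include exons outside the floxed part, so they do not measure intact transcript. All 10 markers of arch crest were detected, with a summed level of 1649 to 2022 CPM in DKO and 1909 to 2257 CPM in control libraries, and 0 of them were called. The 6 endothelial markers summed to 25.0 to 28.3 CPM in DKO and 12.2 to 16.4 CPM in control libraries, with Tie1 called higher (means of 8.05 against 0.965 CPM) and none at 0 in any library. The 6 muscle and mesoderm markers summed to 14.6 to 26.4 CPM in DKO and 12.3 to 15.5 CPM in control libraries, with Myl1 called higher (0.865 against 0.0676 CPM), and the 7 blood and immune markers to 12.3 to 170.6 and 56.98 to 102.6 CPM, with 0 called. The part of other cells in the results below was not tested. Neuron and glia markers summed to 876 to 1005 and 1000.02 to 1160 CPM, with Pou4f1 called lower. DKO replicate 3 and control replicate 2 held 1 and 0 counts over the Y-linked genes, so each group has 1 library of this kind.

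Of the 10 demethylase genes, 1 was called lower in DKO and 0 were called higher. A call is an adjusted p below 0.05 from the quasi-likelihood test of edgeR, adjusted over all tested genes. Over all tested genes, 0.818% were called lower and 2.19% higher, 3.01% in all. With 10 members, 1 call is too few to compare with these shares. At an unadjusted p below 0.05, 2 members were lower (Kdm3a and Kdm3b) and 0 were higher, beside 9.89% lower and 11.0% higher over all tested genes. DESeq2 called the same 2 genes lower and 0 higher, beside 3.31% and 4.29% of all genes. Limma-voom called 1 member lower (Kdm3b) and 0 higher, beside 0.763% and 2.06%. The median log2 fold change of the 10 genes was -0.06, against -0.01 over all tested genes and -0.07 over the 5603 tested genes with a mean of at least 50 CPM. Kdm3a and Kdm3b were also the members whose DKO libraries all lay below the control libraries, and 0 members lay the other way, where 12.7% of all tested genes had DKO below control and 14.5% above it without overlap. In sorted bulk cells, fewer cells of a type and less RNA per cell cannot be told apart.

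**Figure D1:**
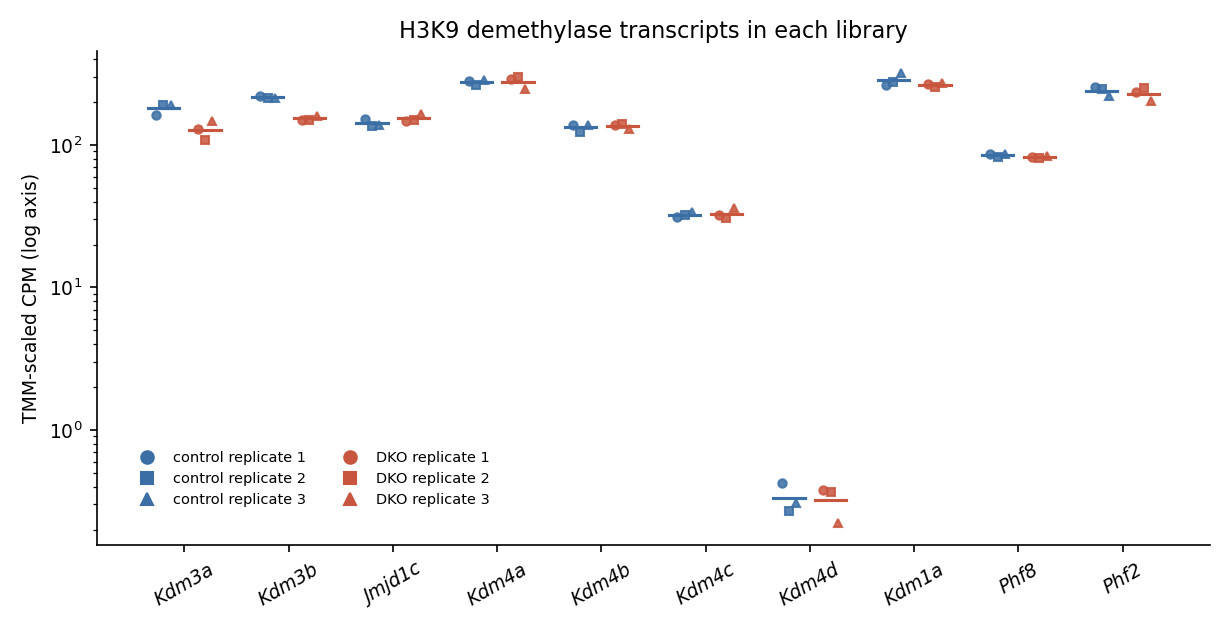
Level of each demethylase gene in TMM-scaled CPM (log axis) in 3 control libraries (blue) and 3 DKO libraries (red), with a marker shape per replicate and a bar at each group mean. The groups separate for Kdm3a and Kdm3b, and overlap for the other members, from 318 CPM (Kdm1a, control replicate 3) down to 0.22 CPM (Kdm4d, DKO replicate 3).

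Values of single libraries are given in the order of the replicate numbers. In the KDM3 group, which acts on the mark that EHMT1 and EHMT2 make, Kdm3b fell and Kdm3a lay lower without passing the test, while Jmjd1c was not called. Kdm3b (chromosome 18, 34777008 to 34839370 on GRCm38, the assembly also called mm10) encodes a broadly expressed mono- and dimethyl H3K9 demethylase. It measured 149, 150.7 and 161 CPM in DKO against 221, 213 and 214 CPM in the controls. Each group spans a narrow range, and the highest DKO library lies well under the lowest control library. DKO stood at 153 ± 6.39 CPM and control at 216 ± 4.51 CPM (SD, n = 3 per group), or 71.1% of the control mean. The log2 fold change was -0.49 (SE 0.07, 95% interval -0.64 to -0.34; edgeR adjusted p = 0.00803). Without DKO replicate 1, its lowest DKO library, the value was nearly the same (-0.47) but the adjusted p rose to 0.0587 in edgeR, the largest of 14 alternatives that ran down to 1.02e-09 (DESeq2).

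Kdm3a (chromosome 6, 71588970 to 71632990), whose product also removes mono- and dimethyl H3K9 and is known from spermatogenesis, metabolism and the response to hypoxia, measured 129, 108 and 147 CPM in DKO against 161, 191 and 190.7 CPM in the controls. The DKO libraries all lie below the controls, but both groups are spread more widely than for Kdm3b, with DKO replicate 3 and control replicate 1 closest to each other. DKO stood at 128 ± 19.3 CPM and control at 181 ± 17.1 CPM (SD, n = 3 per group), or 70.7% of the control mean. Its log2 fold change of -0.50 (SE 0.12, 95% interval -0.78 to -0.22) was as large as that of Kdm3b and missed the threshold (edgeR adjusted p = 0.0686; unadjusted p = 0.00295). The call depends on the setting: the adjusted p was 0.00468 with DESeq2 and 0.0228 in edgeR without DKO replicate 3 (log2 fold change -0.61), and ranged from 0.00468 to 0.237 over the 14 alternatives.

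**Figure D2:**
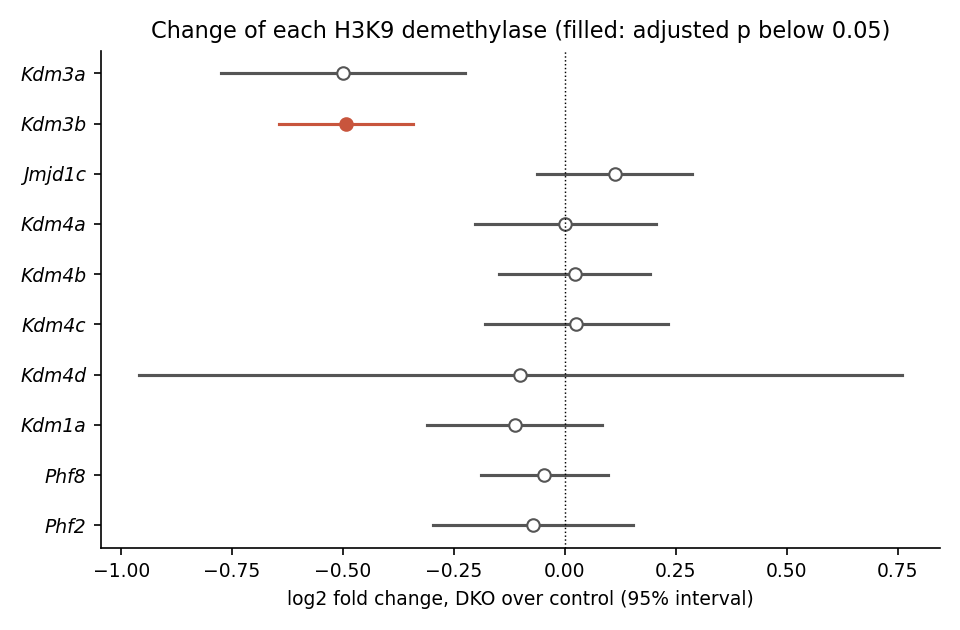
Log2 fold change of each demethylase gene, DKO over control, as a point with its 95% interval from edgeR (3 libraries a group); filled red marks an adjusted p below 0.05 and open grey a larger one. Kdm3b at -0.49 is the called gene, Kdm3a at -0.50 has a wider interval, and the other members have intervals that include 0.

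Jmjd1c (chromosome 10, 67096351 to 67256326), also called KDM3C, is the third member of the group, and its activity on H3K9 is disputed. It measured 148, 149.8 and 164 CPM in DKO against 152, 136 and 138 CPM in the controls. These ranges overlap, with control replicate 1 inside the DKO range. The log2 fold change was 0.11 (SE 0.08, 95% interval -0.06 to 0.29; edgeR adjusted p = 0.434).

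The ratio of counts between related genes within a library does not depend on how libraries are scaled. It was taken for 7 pairs, chosen after levels were seen, with an exact permutation test over the 6 libraries that cannot go below 0.1. The log2 ratio of Kdm3b to Jmjd1c was 0.01, 0.01 and -0.03 in DKO against 0.54, 0.64 and 0.63 in the controls. Counts of the 2 genes were thus close to equal in each DKO library, while Kdm3b was the higher in each control library. Raw counts are not corrected for gene length. Per kilobase of exon, Kdm3b (21.4 to 23.1 CPM per kb) lay above Jmjd1c (16.5 to 18.4) in the DKO libraries too. The difference was -0.61, with an SD of 0.02 in DKO and 0.06 in the controls (n = 3 per group; exact permutation p = 0.1, 2-sided, adjusted p = 0.35 over the 7 pairs). The log2 ratio of Kdm3a to Jmjd1c was -0.20, -0.47 and -0.16 in DKO and 0.08, 0.49 and 0.46 in control libraries, again without overlap, a difference of -0.62 (exact permutation p = 0.1, adjusted p = 0.35). Kdm3b to Kdm3a gave 0.27 ± 0.18 in DKO and 0.26 ± 0.17 in the controls (SD, n = 3 per group; exact permutation p = 0.9), with the groups overlapping.

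**Figure D3:**
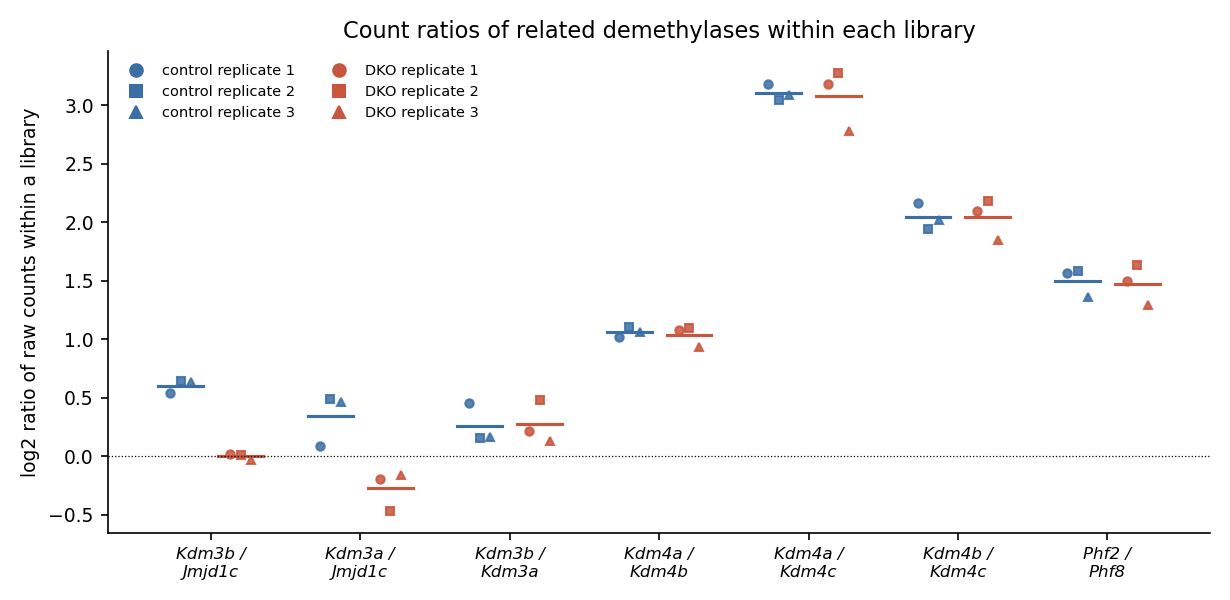
Log2 ratio of raw counts of 2 related demethylase genes within each library, for 3 control (blue) and 3 DKO (red) libraries, with bars at group means. The ratios to Jmjd1c separate the groups (Kdm3b: -0.03 to 0.01 in DKO, 0.54 to 0.64 in control), and the other 5 ratios overlap.

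Levels of different genes were compared per kilobase of exon, with lengths from GENCODE M21. The 3 KDM3 genes summed to 64.8 ± 5.49 CPM per kb in DKO and 83.1 ± 1.82 in the controls (SD, n = 3 per group). The DKO sums ran from 60.1 to 70.8 and the control sums from 81.04 to 84.4 CPM per kb. As a share of that sum, Jmjd1c made up 26.6% ± 1.14 in DKO and 19.2% ± 1.597 in control libraries, Kdm3b 34.2% ± 1.77 and 37.4% ± 1.61, and Kdm3a 39.3% ± 2.87 and 43.4% ± 3.20 (SD, n = 3 per group). The share of Jmjd1c lay higher in each DKO library (25.9% to 27.9%) than in each control library. The share of Kdm3b lay lower (32.7% to 36.1% in DKO, 36.4% to 39.3% in control), and the shares of Kdm3a overlapped between groups. A share of a sum rises when the other genes of the sum are lower. The level of Jmjd1c itself overlapped, at 16.5 to 18.4 CPM per kb in DKO and 15.2 to 17.0 in control libraries.

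The KDM4 genes, which encode demethylases of trimethyl and dimethyl H3K9, had log2 fold changes near 0. Kdm4a (chromosome 4, 118136957 to 118180090), which also acts on H3K36, measured 291, 297 and 246 CPM in DKO against 282, 265 and 287 CPM in the controls. DKO replicate 3 is the lowest and DKO replicate 2 the highest of all 6 libraries. The log2 fold change was 0.00 (SE 0.09, 95% interval -0.20 to 0.21; edgeR adjusted p = 0.994). Kdm4b (chromosome 17, 56325970 to 56403774) measured 138, 139 and 129 CPM in DKO and 139, 123 and 137 CPM in control libraries, a log2 fold change of 0.02 (SE 0.07, 95% interval -0.15 to 0.19; edgeR adjusted p = 0.899). Kdm4c (chromosome 4, 74242497 to 74405864) measured 32.1, 30.6 and 35.8 CPM in DKO and 31.0, 32.1 and 33.7 CPM in control libraries, a log2 fold change of 0.03 (SE 0.09, 95% interval -0.18 to 0.23; edgeR adjusted p = 0.903). For these 3 genes the DKO and control ranges overlap.

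Kdm4d (chromosome 9, 14462548 to 14500522), a gene known for expression in testis, was close to silent. It had 14, 16 and 10 counts in DKO against 19, 6 and 9 counts in the controls. At this depth its log2 fold change of -0.10 had a 95% interval from -0.96 to 0.76 (SE 0.38; edgeR adjusted p = 0.91). The interval includes a decrease of nearly 2-fold as well as an increase. The KDM4 genes summed to 92.2 ± 6.24 CPM per kb in DKO and 91.6 ± 4.15 in the controls (SD, n = 3 per group), with overlapping ranges. Within libraries, Kdm4a, Kdm4b and Kdm4c kept ratios whose group differences were -0.03 (Kdm4a to Kdm4b), -0.03 (Kdm4a to Kdm4c) and 0.00 (Kdm4b to Kdm4c) on the log2 scale (exact permutation p = 0.8, 0.9 and 1).

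Kdm1a (chromosome 4, 136550533 to 136602787), which encodes the amine oxidase LSD1, measured 266, 256 and 272 CPM in DKO against 263, 277 and 318 CPM in the controls. Control replicate 3 stands above the rest and the ranges overlap. The log2 fold change was -0.11 (SE 0.09, 95% interval -0.31 to 0.08; edgeR adjusted p = 0.484).

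Phf8 (chromosome X, 151520641 to 151633859), a demethylase of mono- and dimethyl H3K9 and of H4K20 monomethylation, varied little between libraries. It measured 82.8, 81.0 and 82.9 CPM in DKO against 86.1, 82.8 and 85.7 CPM in the controls. The libraries without Y-linked counts gave 82.9 CPM (DKO replicate 3) and 82.8 CPM (control replicate 2), next to the other DKO values and at the low end of the controls. The log2 fold change was -0.05 (SE 0.06, 95% interval -0.19 to 0.10; edgeR adjusted p = 0.717). Phf2 (chromosome 13, 48801750 to 48870885), a relative of Phf8 that acts on dimethyl H3K9 when phosphorylated, measured 233, 252 and 203 CPM in DKO and 255, 248 and 219.7 CPM in control libraries. Replicate 3 is the lowest library of each group, and the ranges overlap. The log2 fold change was -0.07 (SE 0.10, 95% interval -0.30 to 0.15; edgeR adjusted p = 0.725), and the log2 ratio of Phf2 to Phf8 differed by -0.03 between groups (exact permutation p = 0.8).

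The order of the members by control level per kilobase was Kdm1a (93.3 ± 9.35 CPM per kb), Kdm4a (54.9 ± 2.25), Phf2 (43.8 ± 3.37), Kdm3a (36.1 ± 3.41), Kdm3b (31.1 ± 0.65), Kdm4b (29.1 ± 1.87), Jmjd1c (15.9 ± 0.968), Phf8 (10.1 ± 0.215), Kdm4c (7.44 ± 0.318) and Kdm4d (0.124 ± 0.0301; SD, n = 3 per group). Kdm1a stood at the 95.9th percentile of tested genes by this measure and Kdm4d at 3.91. The ranges of neighbours in this order did not overlap over the 3 control libraries. With the length of the longest transcript in place of all exons, a setting chosen after the data were seen, the order was the same, but Kdm3a (33.2 to 39.4 CPM per kb) and Kdm3b (33.4 to 34.7) overlapped. In DKO libraries Kdm4b (29.5 ± 1.24) came before Kdm3a (25.5 ± 3.86) and Kdm3b (22.1 ± 0.92), with Kdm4b overlapping Kdm3a and Kdm3a overlapping Kdm3b.

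Set against the writers, the members summed to 294.8 ± 3.36 CPM per kb in DKO and 322 ± 9.48 in control libraries, while Ehmt1 and Ehmt2 summed to 55.8 ± 5.79 and 129.6 ± 3.09 (SD, n = 3 per group). The ratio of member to writer transcripts was 5.50, 5.79 and 4.68 in DKO against 2.51, 2.42 and 2.52 in the controls. Its denominator is the floxed genes, which stood at 43.1% of the control mean, with the members at 91.6%. A higher ratio in DKO was therefore set by the design and is not a result about the members. DKO replicate 3, with the highest CPM of Ehmt1 and Ehmt2 among the DKO libraries, had the lowest DKO ratio. That follows largely from the denominator, as the member sums in DKO ran only from 291 to 298 CPM per kb. DKO replicate 3 also had the highest DKO level of Kdm3a, Kdm3b, Jmjd1c, Kdm4c, Kdm1a and Phf8, and the lowest of Kdm4a, Kdm4b, Kdm4d and Phf2. A link between these levels and those of Ehmt1 and Ehmt2 was not tested. This library is the DKO library with 1 Y-linked count. Of the 9 H3K9 methyltransferase genes, Ehmt1 (log2 fold change -0.81) and Ehmt2 (-1.47) were called lower and the other 7 were not called.

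Kdm3a is a known target of the hypoxia-inducible factors, so the start of Kdm3a is printed beside that of Jmjd1c, its relative with a log2 fold change above 0, with the core letters of the hypoxia response element in capitals. The windows run from 250 bases before to 50 bases after a RefSeq start (GRCm38.p6), 5′ to 3′ on the strand of the gene. They lie at chr6:71632868-71633167 on the minus strand for Kdm3a and chr10:67126838-67127137 on the plus strand for Jmjd1c. The letters searched were GCGTG and ACGTG on both strands, and ACGTG read on both strands can mark the same CACGTG.

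Kdm3a: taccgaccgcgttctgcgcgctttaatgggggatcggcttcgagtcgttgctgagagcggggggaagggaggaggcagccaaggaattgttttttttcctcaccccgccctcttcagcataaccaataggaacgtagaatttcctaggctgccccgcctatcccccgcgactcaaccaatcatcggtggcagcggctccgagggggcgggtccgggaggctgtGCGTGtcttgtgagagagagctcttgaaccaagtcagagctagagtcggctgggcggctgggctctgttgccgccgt
Jmjd1c: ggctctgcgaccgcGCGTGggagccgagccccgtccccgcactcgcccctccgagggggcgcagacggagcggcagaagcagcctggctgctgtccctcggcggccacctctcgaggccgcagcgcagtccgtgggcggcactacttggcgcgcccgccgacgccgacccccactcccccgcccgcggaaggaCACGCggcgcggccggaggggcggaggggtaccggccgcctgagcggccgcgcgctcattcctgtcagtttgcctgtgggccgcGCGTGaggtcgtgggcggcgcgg

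The Kdm3a window held 1 match of GCGTG, starting 27 bases before the start site, and the Jmjd1c window held 3, with 0 matches of ACGTG in either. The other 2 windows of Kdm3a and the second window of Jmjd1c held neither. Of 32851 promoter windows of this length in the table, 32.4% held GCGTG, 19.6% held ACGTG and 43.8% held either, so such letters are common. Both motifs contain CG, and the median window held 7 CG dinucleotides, against 24 in the Kdm3a window and 47 in the Jmjd1c window printed. The shares over all windows are therefore not for windows of like CG content. RefSeq windows were matched for 8 members, not for Kdm3b or Kdm4b, and these 8 genes had 12 windows. Windows of the same gene can overlap, as for Kdm3a. Of the 12, 5 windows (41.7%) held GCGTG (1 each for Kdm3a, Jmjd1c, Kdm4c, Kdm1a and Phf8) and 2 (16.7%) held ACGTG (Kdm4c and Phf8). A match is a description of letters and not of binding.

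Genes around this pathway were read from 6 lists, and outside the writers 0 members of them were called in edgeR as reported. Other edgeR settings called 4 of them lower, which are named after these calls were seen: the repressor gene Snai1 (with the replicate block and with no filter on low counts), Zmym2 and Kdm7a (without DKO replicate 3) and Chd4 (without control replicate 1). The counts below at an unadjusted p and with DESeq2 are to be read beside 9.89% lower and 11.0% higher, and 3.31% and 4.29%, over all genes. List medians are to be read beside -0.01 over all tested genes and -0.07 over tested genes with a mean of at least 50 CPM. Log2 fold changes below 0 were found for 16 of 20 hypoxia targets and 11 of 16 other demethylase and JmjC genes. They were found for 14 of 20 KDM1A partners, 17 of 19 2-oxoglutarate genes and 10 of 10 readers, beside 51.2% of all tested genes. No list was tested as a set. The 20 hypoxia target genes had 0 called in edgeR (2 lower and 1 higher at an unadjusted p below 0.05, 1 lower with DESeq2, 0 with limma-voom) and a median log2 fold change of -0.16. The glycolysis genes Eno1 and Ldha, the most abundant of these, had log2 fold changes of -0.21 (SE 0.17) and -0.29 (SE 0.17). The gene DESeq2 called, named after the call was seen, was Bnip3 (log2 fold change -0.52, DESeq2 adjusted p = 0.0399, edgeR adjusted p = 0.127). The 16 genes of other histone demethylases and related JmjC proteins, among them Jarid2, which lacks demethylase activity, and Hif1an, an asparagine hydroxylase of the hypoxia-inducible factors, had 0 called (2 lower and 0 higher unadjusted, 0 with DESeq2 and 0 with limma-voom) and a median of -0.06, with Kdm6b, an H3K27 demethylase gene, at -0.13 (SE 0.08) and Kdm5b, an H3K4 demethylase gene, at -0.02 (SE 0.08). The gene Hr of this list, chosen here after its value was seen, encodes another H3K9 demethylase of the KDM3 type and had a log2 fold change of -0.93 (edgeR adjusted p = 0.155).

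Of the 20 tested genes for partners of KDM1A, such as the CoREST and NuRD complexes, 0 were called (4 lower and 0 higher unadjusted, 4 lower with DESeq2, 0 with limma-voom), with a median of -0.18. The 4 genes DESeq2 called were Chd4, Hdac1, Hdac2 and Snai1. The remodeller gene Chd4, the most abundant, went from 1111 ± 64.1 CPM in control to 886.7 ± 17.9 CPM in DKO libraries (SD, n = 3 per group; log2 fold change -0.33, edgeR adjusted p = 0.0713), and the corepressor gene Ctbp1 stood at 0.02. The 19 genes that make or use 2-oxoglutarate or its inhibitors had 0 called (3 lower and 0 higher unadjusted, 1 lower with DESeq2, 0 with limma-voom) and a median of -0.05, with the succinate dehydrogenase gene Sdha at -0.16 (SE 0.07) and the isocitrate dehydrogenase gene Idh2 at -0.29 (SE 0.08). The 10 genes for HP1 and other readers of methyl H3K9 had 0 called (3 lower and 0 higher unadjusted, 2 lower with DESeq2, 0 with limma-voom) and a median of -0.15, with the corepressor gene Trim28 at -0.05 (SE 0.10) and the HP1-alpha gene Cbx5 at -0.31 (SE 0.08; edgeR adjusted p = 0.0743).

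**Figure D4:**
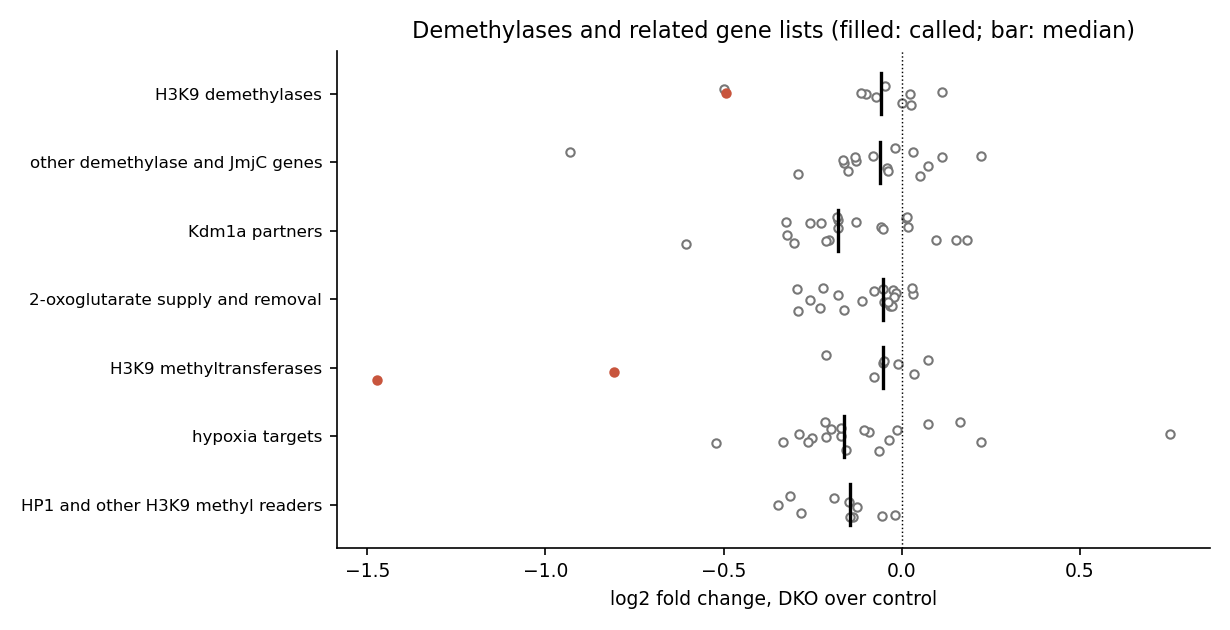
Log2 fold change (DKO over control) of each tested gene of the demethylase set and of 6 related lists, 1 point a gene, filled red where the adjusted p is below 0.05, with a bar at each list's median. The filled points are Kdm3b, Ehmt1 and Ehmt2, and list medians run from -0.18 to -0.05.

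Around Kdm3b, 17 tested genes start within 500 kb of its start on chromosome 18. Of these, 0 were called in edgeR, 0 had an unadjusted p below 0.05, and DESeq2 and limma-voom called 0, with a median log2 fold change of -0.04. Over all tested genes, edgeR called 0.818% lower and 2.19% higher, and 9.89% and 11.0% had an unadjusted p below 0.05. DESeq2 called 3.31% lower and 4.29% higher, and limma-voom 0.763% and 2.06%. With 17 genes, 0 calls cannot be told apart from the shares called at an adjusted p. Across the 6 libraries, the log2 levels most like those of Kdm3b, among 10223 other genes with a mean of at least 10 CPM, were those of Gsk3b (Pearson r = 0.996), Slc39a8 (0.995), Ehmt2 (0.994), Zfyve9 (0.993) and Lpcat3 (0.993). These values describe 6 points in 2 groups, and Ehmt2 is one of the genes, with Ehmt1, that the groups were made to differ in. The 5 genes were picked for likeness to Kdm3b, which was called lower, so lower values in DKO follow from the choice. Of the 5, Slc39a8, a zinc and manganese transporter gene (log2 fold change -0.57), and Ehmt2 were called lower, and Gsk3b, a kinase gene of the Wnt pathway, was at -0.25 (SE 0.07; edgeR adjusted p = 0.0811).

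**Figure D5:**
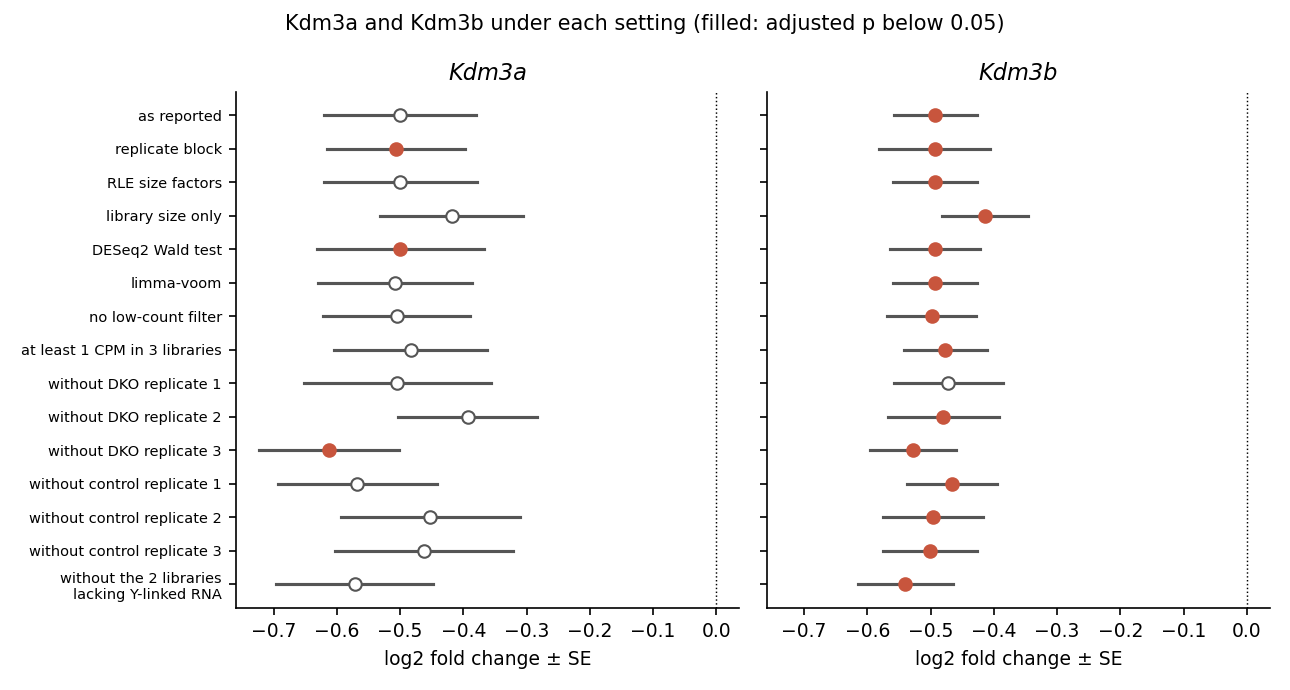
Log2 fold change of Kdm3a (left) and Kdm3b (right) with its SE as reported and under 14 alternatives, filled red where the adjusted p is below 0.05. Kdm3b stays between -0.54 and -0.41 and is called in 13 of 14 alternatives, and Kdm3a lies between -0.61 and -0.39 and is called in 3.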

How the data were processed

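The table the authors deposited holds raw counts, 1 row a gene symbol. The tools named in the submitters' processing notes are STAR 2.7.10a, Trim Galore and Picard, on build mm10; counting program, strand setting and annotation: not given in the sources used here. Without a known strand setting, reads of Kdm3b and Phf2 that fall on antisense RNAs (0.763% and 0.146% of their exon bases) cannot be told apart. No measured value set which genes are members, but the members and gene lists were chosen with earlier results of these data known.

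Counts were tested with edgeR 4.0.16 in R 4.3.3: filterByExpr (minimum count 10, minimum total 15), TMM scaling and the robust quasi-likelihood test, 2-sided, group as the only term, Benjamini-Hochberg over 14555 genes. The SE is the size of the log2 fold change over the root of F. The code was tested on simulated data. P-values set the group difference against the spread between these libraries. The titles call them biological replicates, and biological and technical parts of that spread cannot be told apart here. Named genes are all members, Ehmt1 and Ehmt2, and per list up to 3 called genes or the 2 most abundant. Alternatives were a replicate block, RLE, library size only, DESeq2 1.42.0, limma-voom (limma 3.58.1), 2 other filters, each library left out, and the 2 libraries lacking Y-linked counts left out.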

Additional observations from a re-analysis of the deposited data

How the results depend on the processing

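Of 14 alternatives, 13 kept the call of Kdm3b; leaving out 1 library moved its log2 fold change between -0.5284 and -0.4662, and the call ended without DKO replicate 1. Members called lower numbered 2 with the replicate block and 2 with DESeq2, and 0 to 2 without 1 library. In each of these settings the second gene was Kdm3a. Genes called over the whole table were 319 higher and 119 lower as reported, 624 and 482 with DESeq2, and 110 to 597 and 21 to 509 without 1 library. The replicate block gave 196 lower, and library-size scaling moved the share of higher calls from 72.8% to 83.9% and the median log2 fold change of all tested genes from -0.01 to 0.07. The titles do not say whether the replicate numbers pair the samples. Deviations of same-numbered libraries correlated at 0.05, -0.03 and 0.36, and those of differently numbered libraries at -0.39 to 0.45. With 3 libraries a group, these values cannot settle whether the samples are paired. With the block, Kdm3a was called (-0.51, edgeR adjusted p = 0.0285).

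Among the related lists outside the writers, edgeR called 1 gene lower with the replicate block (Snai1), 1 with no filter (Snai1), 2 without DKO replicate 3 (Zmym2 and Kdm7a) and 1 without control replicate 1 (Chd4).

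Signs turned for members near 0 that were not called in any setting. Kdm4a was at -0.0027 (replicate block), -0.0017 (limma-voom) and -0.0034 (no filter), Phf8 at 0.0327 and Phf2 at 0.0069 (library size only), and Kdm4c at -0.0455 and Phf2 at 0.0298 without the libraries lacking Y-linked counts. Without 1 library, Kdm4a ranged from -0.049 to 0.0824, Kdm4b from -0.0227 to 0.0628, Kdm4c from -0.0416 to 0.0743, Kdm4d from -0.2187 to 0.1514 and Phf2 from -0.1439 to 0.0096. Kdm4d was not tested with at least 1 CPM in 3 libraries. The cause of these changes was not tested. Depth limits Kdm4d, with 6 to 19 counts a library.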
